A study of Homo sapiens with 10 samples.

Results

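The cyclin D, CDK4/6 and RB axis was described here by 10 genes out of the 23426 in the expression files of the study, chosen by symbol and with earlier results of these data known: RB1, CCND1, CCND2, CCND3, CDK4, CDK6, CCNE1, CDKN1B, CDKN2A and CDKN2B. RNA sequencing was run on 2 established human breast cancer cell lines, MDA-MB-468, labelled basal, and ZR75-1, labelled luminal. Each line had 2 samples treated with the vehicle DMSO and 3 treated with 1 µM PKC412, all harvested after 6 h, so that the 10 samples form 4 groups. PKC412 is midostaurin, a kinase inhibitor derived from staurosporine. The concentration is the one the labels give, and the study's own text also gives a lower concentration for this experiment. Each condition is 1 line, so a difference between lines is a difference between 2 cultures and not between basal and luminal tumours as classes, and the labels do not say whether the samples of a group came from separate cultures. The p-values then measure the spread between these samples, which may be technical.

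In the textbook scheme, D-type cyclins bind CDK4 or CDK6, and the complex phosphorylates the retinoblastoma protein RB, which otherwise holds E2F transcription factors inactive. E2F then drives the genes of DNA replication, and also cyclin E1, which with CDK2 completes RB phosphorylation. Proteins of the INK4 family, encoded by CDKN2A and CDKN2B, block CDK4 and CDK6, whereas the KIP protein p27, encoded by CDKN1B, blocks CDK2 complexes and also binds cyclin D complexes. In breast cancer CCND1 is a known target of estrogen receptor signalling in luminal cells, and MDA-MB-468 is known as a line without functional RB.

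The marker genes were read first. In MDA-MB-468 all 10 basal markers exceeded 1 FPKM in some sample, with a summed level of 2521 to 2744 FPKM, and 7 of 10 luminal markers did, with PGR at 0 in every sample and a luminal sum of 3006 to 6563 FPKM, above its basal sum. The basal marker CDH3 was lower in MDA-MB-468 than in ZR75-1 (log2 difference -0.95, SE 0.19, limma adjusted p = 0.0042). In ZR75-1, 9 of 10 luminal markers and 2 of 10 basal markers did, and the summed basal level was 23.2 to 32.8 FPKM against a luminal sum of 11975 to 20859. Of 8 markers of leukocytes, endothelium and fibroblasts, 5 stayed at or under 0.1 FPKM in each line. CD14, a monocyte marker, was at 11.7 to 23.3 FPKM in MDA-MB-468, with a difference between PKC412 and DMSO there that was not called (-0.71, limma adjusted p = 0.0737). The fibroblast collagen gene COL1A1 rose 3.58-fold with PKC412 in ZR75-1 (log2 difference 1.49, limma adjusted p = 0.0181), and the endothelial marker PECAM1 rose 1.76-fold with PKC412 in MDA-MB-468 (log2 difference 0.31, limma adjusted p = 0.0404), staying under 1 FPKM. The part of these markers in the results was not tested. FPKM, fragments per kilobase of transcript per fixed number of mapped fragments, is a level scaled for length and library size, and the number of reads behind a value is unknown here. The samples also differed in how FPKM ran with the GC content of the transcript. This GC slope, in log2 units per 10 percentage points of GC, separated the treatments of MDA-MB-468 without overlap. Its DMSO samples had slopes of 0.373 and 0.0573, and those given PKC412 had slopes of -0.287, -0.024 and -0.119. In ZR75-1 it was 0.314 and -0.192 with DMSO and -0.107, 0.342 and -0.356 with PKC412, so there the treatments overlapped. The part of these slopes in the results was not tested, and values adjusted for GC content and length are given beside the results whose call or direction they change.

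Between the lines in DMSO, 7 of the 9 axis genes that could be tested differed. CDKN2A, CDKN2B, CCND3, CDK6 and CCNE1 were higher in MDA-MB-468, whereas CCND1 and CDK4 were higher in ZR75-1. RB1 and CDKN1B did not pass the test, and CCND2 was too low to enter it, since it needed a group mean above 0.1 FPKM. Over all 16071 genes tested, 26.5% were called higher in MDA-MB-468 and 15.9% lower, so that a call between these lines is common. The test was limma on log2(FPKM + 1) with Benjamini-Hochberg adjustment over all genes tested and a threshold of 0.05, and log2 differences below are on that scale, which understates the change of low genes. The same 7 genes separated the lines without overlap over all 5 samples each, DMSO and PKC412 together, where 29.7% of genes lay wholly higher in MDA-MB-468 and 18.1% wholly lower.

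**Figure D1:**
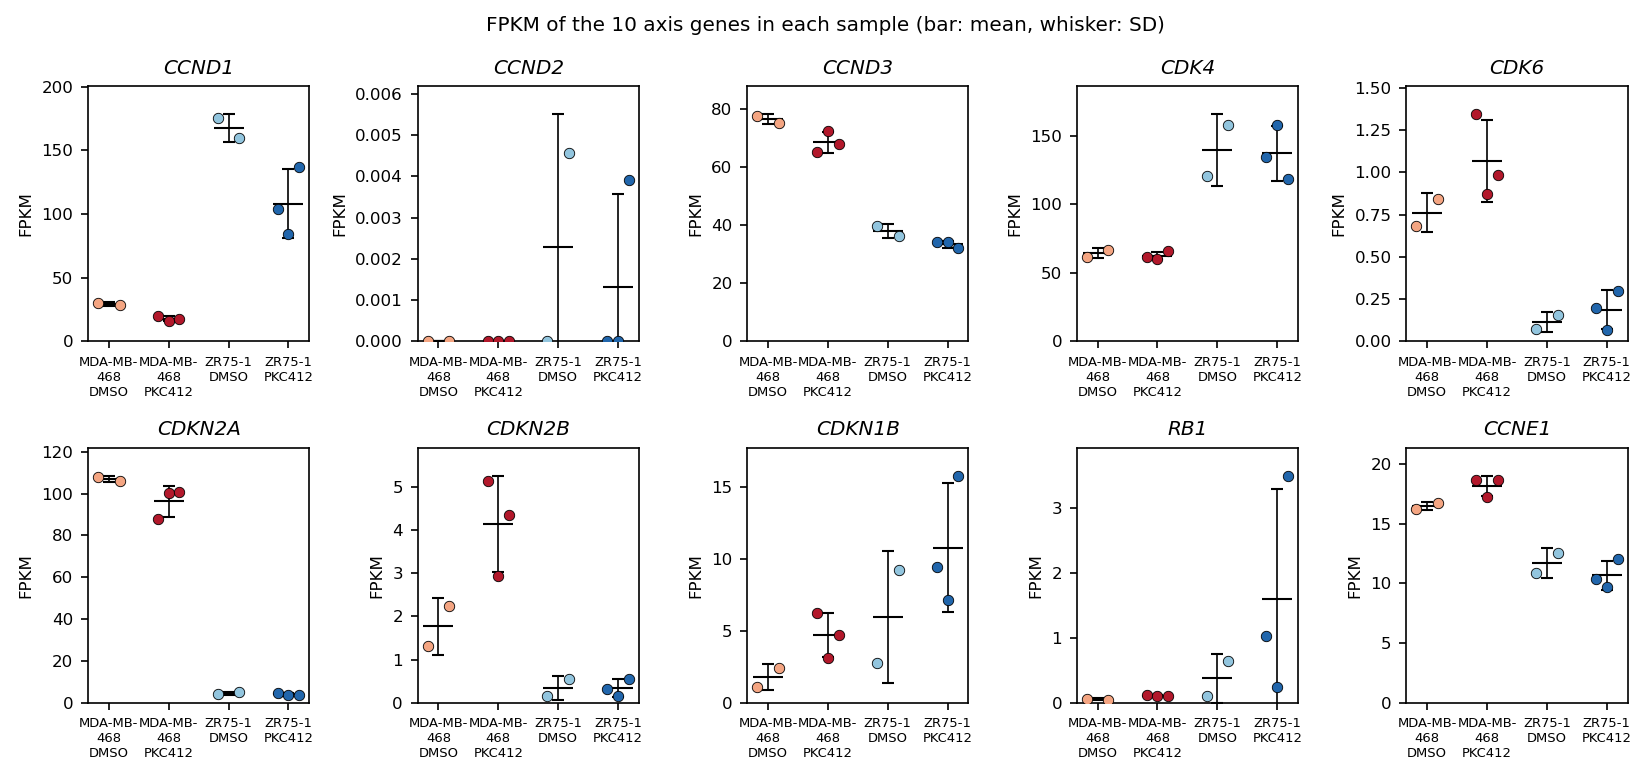
FPKM of the 10 axis genes (vertical axis, linear and starting at 0, with its own range in each panel) in the 2 DMSO and 3 PKC412 samples of MDA-MB-468 and ZR75-1. Points are samples, the horizontal bar is the group mean and the whisker is the SD; CDKN2A and CCND1 lie apart between the lines, while RB1 and CDKN1B spread widely within ZR75-1.

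Among the genes of the D-type cyclins, CCND1 had the highest FPKM in ZR75-1 and CCND3 in MDA-MB-468. Protein levels were not measured. CCND1 (GRCh38 chr11:69641087-69654474) stood at 30.4 and 28.1 FPKM in the DMSO samples of MDA-MB-468 and at 175 and 160 FPKM in those of ZR75-1. The ZR75-1 mean was 5.73-fold higher, with a log2 difference, MDA-MB-468 minus ZR75-1, of -2.48 (SE 0.213, limma adjusted p = 4.0e-05). CCND3 (chr6:41934933-42050357) had the opposite order, with 77.8 and 75.3 FPKM in MDA-MB-468 against 39.7 and 36.3 FPKM in ZR75-1. Its mean was 2.01-fold higher in MDA-MB-468, with a log2 difference of 0.99 (SE 0.0995, limma adjusted p = 9.6e-05). CCND2 (chr12:4273772-4305350) was listed at 0 in all 5 samples of MDA-MB-468 and in 3 of 5 of ZR75-1, where the other two read 0.00456 and 0.00392 FPKM. Within a sample, CCND1 made up 28.1% and 27.2% of the summed FPKM of the 3 D-type cyclins in the DMSO samples of MDA-MB-468. Its share was 81.5% in both DMSO samples of ZR75-1. The D-type cyclins together summed to 108 and 103 FPKM in the DMSO samples of MDA-MB-468 and to 215 and 196 FPKM in those of ZR75-1.

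The transcripts of the kinase partners were unequal in both lines, with CDK4 far above CDK6. CDK4 (chr12:57747727-57756013) read 61.5 and 66.8 FPKM in the DMSO samples of MDA-MB-468 and 121 and 158 FPKM in those of ZR75-1. All ZR75-1 values lay above all MDA-MB-468 values, the mean being 2.17-fold higher and the log2 difference -1.10 (SE 0.169, limma adjusted p = 0.00105). CDK6 (chr7:92604921-92836594) read 0.680 and 0.844 FPKM in MDA-MB-468 against 0.0747 and 0.158 FPKM in ZR75-1. The MDA-MB-468 mean was 6.55-fold higher, although both levels were low and the log2 difference, damped by the added 1, was 0.66 (SE 0.132, limma adjusted p = 0.0042). Per FPKM, CDK4 exceeded CDK6 by 46.0-fold to 90.5-fold over the 5 samples of MDA-MB-468 and by 397-fold to 2294-fold over those of ZR75-1. In each line the highest ratio stood in the sample with the highest GC slope (0.373 and 0.342). The lowest ratio stood in the sample with the lowest slope (-0.287 and -0.356), so these ranges also run with GC content. TSPAN31 overlaps the 3′ end of CDK4, and since the strand setting of the counting is not given in the sources used here, reads of such overlapping genes cannot be told apart.

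CDKN2A marked the widest gap between the lines. This INK4 gene (chr9:21967753-21995301) was at 108 and 106 FPKM in the DMSO samples of MDA-MB-468 and at 4.05 and 4.99 FPKM in those of ZR75-1. The mean was 23.7-fold higher in MDA-MB-468, and the log2 difference of 4.29 (SE 0.146, limma adjusted p = 3.3e-07) was the largest among the 9 axis genes tested. The symbol covers the transcripts of both p16 INK4A, a CDK4 and CDK6 inhibitor, and p14 ARF, an activator of p53, and the files do not separate them. CDKN2B (chr9:22002903-22009363), which encodes the related inhibitor p15, read 1.30 and 2.24 FPKM against 0.155 and 0.547 FPKM. It was 5.04-fold higher in MDA-MB-468 by group means, with a log2 difference of 1.03 (SE 0.275, limma adjusted p = 0.0165). That call was lost without MDA-MB-468 DMSO replicate 2 (adjusted p = 0.115) and without ZR75-1 DMSO replicate 1 (adjusted p = 0.101), the range over its 21 alternatives being 0.00011 to 0.115. Set against its target within a sample, CDKN2A stood at 1.42 to 1.76 times the FPKM of CDK4 in MDA-MB-468. In ZR75-1 the order was turned, with CDK4 at 29.01 to 42.8 times the FPKM of CDKN2A.

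The genes around the INK4 locus on chromosome 9 were listed as local context. Of 6 other annotated genes within 500 kb, CDKN2B-AS1 differed by 1.01 (SE 0.143, limma adjusted p = 0.00067) with 1.34 to 1.80 FPKM in MDA-MB-468 and 0.0611 to 0.394 FPKM in ZR75-1. This antisense RNA overlaps the start of CDKN2A, and its span holds all of CDKN2B on the other strand. The strand setting is not given, so reads from where these genes overlap cannot be told apart, which also limits the CDKN2B call. MIR31HG, a host gene of a microRNA, differed by 1.26 (SE 0.182, limma adjusted p = 0.00073). DMRTA1 differed by 0.39 (SE 0.0982, limma adjusted p = 0.0124). The adjacent MTAP, an enzyme of methionine salvage, did not pass the test, with a log2 difference of 0.82 (limma adjusted p = 0.107) and 0.751 to 2.73 FPKM in ZR75-1. IFNE did not pass the filter and MIR31 was listed at 0.

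Of the genes of the KIP inhibitors, those of p27 and p21 had a lower mean FPKM in MDA-MB-468 and that of p57 a higher one. CDKN1B (chr12:12715058-12722371) read 1.12 and 2.43 FPKM in the DMSO samples of MDA-MB-468 and 2.73 and 9.20 FPKM in those of ZR75-1. The log2 difference was -1.19 (SE 0.535, 95% interval -2.42 to 0.04, limma adjusted p = 0.111), within the spread of the ZR75-1 samples. It passed without ZR75-1 DMSO replicate 1 (-1.92, adjusted p = 0.0251), with median-ratio scaling (adjusted p = 0.0402) and with the GC adjustment (adjusted p = 0.0199), and the range over 21 alternatives was 0.0199 to 0.523. As the mean over both agents, CDKN1B was called lower in MDA-MB-468, while in the PKC412 samples alone it was not called. CDKN1A, which encodes p21 and belongs to the list of other axis genes, read 27.2 and 28.2 FPKM against 157 and 208 FPKM. It was 6.58-fold higher in ZR75-1, with a log2 difference of -2.66 (SE 0.153, limma adjusted p = 4.5e-06). CDKN1C, which encodes p57 and was named after its values were seen, was 1.84-fold higher in MDA-MB-468, with a log2 difference of 0.56 (SE 0.193, limma adjusted p = 0.0468), and was not called in the PKC412 samples (0.39, adjusted p = 0.064).

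RB1 was low in both lines and had the widest span of the tested members in ZR75-1. Its transcript (chr13:48303726-48599436) read 0.0610 and 0.0411 FPKM in the DMSO samples of MDA-MB-468 and 0.114, 0.106 and 0.108 FPKM with PKC412. In ZR75-1 it read 0.108 and 0.642 FPKM with DMSO and 1.04, 0.248 and 3.49 FPKM with PKC412. The highest MDA-MB-468 value was thus just above the lowest of ZR75-1, and the lines overlapped. The difference in DMSO was -0.36 on the log2 scale (SE 0.489, 95% interval -1.49 to 0.77, limma adjusted p = 0.608), and in the PKC412 samples -1.02 (SE 0.399, limma adjusted p = 0.056). By group means RB1 was 7.35-fold higher in ZR75-1 in DMSO and 14.6-fold higher with PKC412. At these low levels the added 1 damps the log2 difference. With 0.1 added in place of 1, the DMSO difference was -1.38 (limma adjusted p = 0.293). Over 21 alternatives it ran from -1.38 to -0.08. The 5 values of ZR75-1 spanned 32.3-fold, against 2.77-fold in MDA-MB-468. RB1 has the lowest transcript GC content of the 10 genes, 37.3%, and its highest value stood in the sample with the lowest GC slope, -0.356, and its lowest ZR75-1 value in a sample with a slope of 0.314. After adjustment for GC content and length, the ZR75-1 span was 10.6-fold, from 0.182 to 1.93 FPKM, and all of it lay above the 0.0467 to 0.106 FPKM of MDA-MB-468.

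The genes around RB1 were read at levels that ranged from 0 to 47.1 FPKM. LPAR6, a receptor gene that lies within an RB1 intron, was listed at 0 in 4 samples of MDA-MB-468 and at 6.4e-05 FPKM in the fifth. In ZR75-1 it read 0.0408, 0.111, 0.508, 0.0725 and 0.681 FPKM, so that the lines did not overlap, although the difference of -0.10 on the log2 scale did not pass the test (limma adjusted p = 0.682). RCBTB2, which overlaps the RB1 span in this annotation, read 0.0349 to 0.117 FPKM in MDA-MB-468 and 0.0464 to 0.355 FPKM in ZR75-1, which overlapped. ITM2B, the nearest gene before RB1, was at 3.96 to 20.5 FPKM in MDA-MB-468 and 8.80 to 47.1 FPKM in ZR75-1, with a difference of -1.30 (SE 0.552, limma adjusted p = 0.0951). MED4, a subunit of the Mediator complex, was at 2.22 to 6.24 and 4.43 to 12.5 FPKM. Of the 10 neighbours within 500 kb, 2 were at 0 in every MDA-MB-468 sample and 1 in every ZR75-1 sample, and none of the 8 tested passed, the smallest adjusted p being 0.0527 for MED4-AS1.

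**Figure D2:**
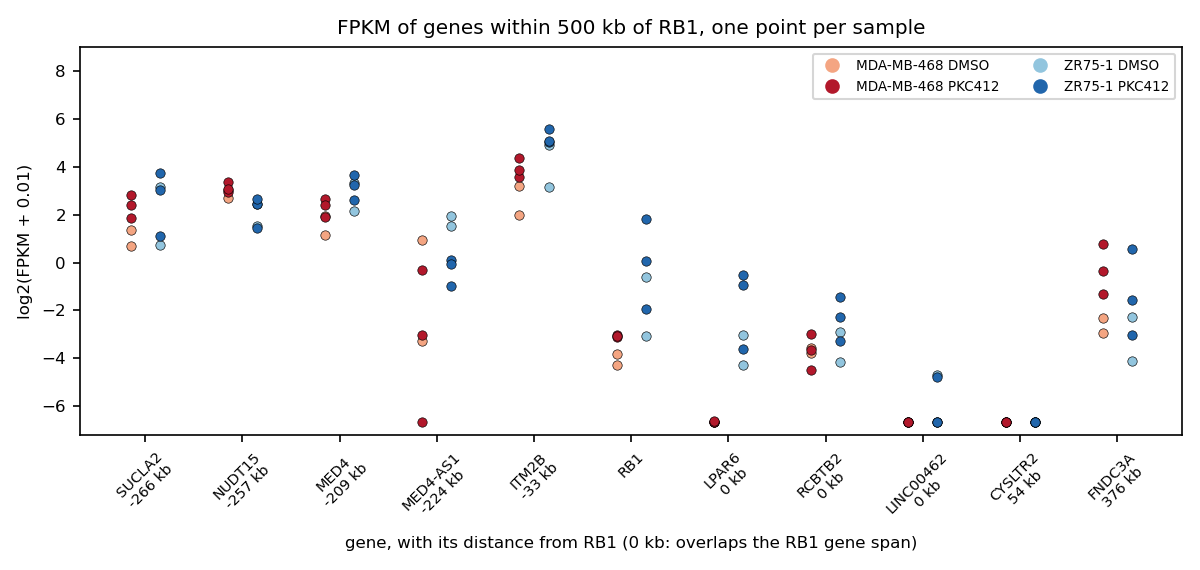
Level of RB1 and its 10 annotated neighbours within 500 kb, as log2(FPKM + 0.01) on the vertical axis, with the genes ordered by position and their distance from RB1 under each name. Each point is a sample; the lowest position is 0 FPKM, where LPAR6 sits in MDA-MB-468 while it reads 0.0408 to 0.681 FPKM in ZR75-1.

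The genes of the other pocket proteins, which share the E2F-binding fold of RB, did not pass the test in DMSO. RBL1, which encodes p107, read 0.552 and 0.604 FPKM in MDA-MB-468 against 0.177 and 0.313 FPKM in ZR75-1, a log2 difference of 0.34 (SE 0.257, limma adjusted p = 0.33). It passed with the GC adjustment (0.50, adjusted p = 0.00975), in the PKC412 samples (0.65, adjusted p = 0.0269) and as the mean over both agents (0.50, adjusted p = 0.0286), and the range over 21 alternatives was 0.00975 to 0.599. RBL2, which encodes p130, read 1.33 and 2.75 FPKM against 0.618 and 2.11 FPKM, a difference of 0.40 (SE 0.565, limma adjusted p = 0.624) that turned to -0.07 without ZR75-1 DMSO replicate 1.

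Downstream of RB, the transcripts of cyclin E1 and of most of the replication genes were higher in MDA-MB-468. CCNE1 (chr19:29811898-29824308) read 16.2 and 16.7 FPKM in its DMSO samples and 10.8 and 12.6 FPKM in those of ZR75-1. It was 1.41-fold higher, with a log2 difference of 0.46 (SE 0.135, limma adjusted p = 0.0246), the smallest of the 7 calls. This call was lost with median-ratio scaling (0.29, adjusted p = 0.0604) and without MDA-MB-468 DMSO replicate 1 (adjusted p = 0.0819), MDA-MB-468 DMSO replicate 2 (adjusted p = 0.11) or ZR75-1 DMSO replicate 1 (adjusted p = 0.118), within a range of 0.00046 to 0.118 over 21 alternatives. CCNE2 read 0.718 and 1.95 FPKM against 0.0437 and 0.632 FPKM, a difference of 0.79 that did not pass (limma adjusted p = 0.177). It passed with the GC adjustment (1.09, adjusted p = 0.00534), in the PKC412 samples (1.73, adjusted p = 0.003) and as the mean over both agents (1.26, adjusted p = 0.00398), and the range over 21 alternatives was 0.003 to 0.632. CDK2, the kinase partner of cyclin E, was called higher in MDA-MB-468 by 1.18 (SE 0.361, limma adjusted p = 0.0299). That call was kept in 18 of 21 alternatives, and was lost, among others, without MDA-MB-468 DMSO replicate 2 or ZR75-1 DMSO replicate 1. The CDK2 difference ran from 0.71 to 1.64 over the alternatives.

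Of the 24 other genes of the axis, 8 were called higher in MDA-MB-468, 1 lower and 15 neither, with a median log2 difference of 0.46 beside 0.11 over all genes tested. The share called higher, 33.3%, lay near the 26.5% of all genes, and the share called lower, 4.17%, below their 15.9%. The INK4 relatives CDKN2D and CDKN2C, which encode p19 and p18, were higher by 2.44 (SE 0.153, limma adjusted p = 7.1e-06) and 2.34 (SE 0.151, limma adjusted p = 8.3e-06). CDKN2C read 39.2 and 43.2 FPKM in MDA-MB-468 and 6.23 and 8.56 FPKM in ZR75-1. E2F2, an activating E2F, was higher by 2.05 (SE 0.163, limma adjusted p = 2.6e-05), with 16.7 and 17.8 FPKM against 3.65 and 3.18 FPKM. SKP2, which targets p27 for degradation, was higher by 1.49 (SE 0.288, limma adjusted p = 0.00355). TFDP2, a dimer partner of E2F, was higher by 1.21 (SE 0.152, limma adjusted p = 0.00035). E2F1 was higher by 0.45 (SE 0.116, limma adjusted p = 0.0142), with 58.5 and 54.3 FPKM against 41.1 and 40.8 FPKM. That call was kept in 17 of 21 alternatives. It was lost, among others, with median-ratio scaling (adjusted p = 0.308) and without MDA-MB-468 DMSO replicate 1. The E2F1 difference ran from 0.26 to 0.50 over the alternatives. CDKN1A was the lower gene.

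Of 18 E2F target genes, 12 were called higher in MDA-MB-468, 1 lower and 5 neither, which is 66.7% and 5.56% beside the same 26.5% and 15.9% of all genes, with a median of 1.42. PCNA, the sliding clamp of the replication fork, read 296 and 473 FPKM in the DMSO samples of MDA-MB-468 and 35.2 and 74.7 FPKM in those of ZR75-1, a log2 difference of 2.84 (SE 0.371, limma adjusted p = 0.00042). TYMS, thymidylate synthase, was higher by 2.69 (SE 0.396, limma adjusted p = 0.00082). Among subunits of the replicative helicase, MCM3 was higher by 2.54, MCM7 by 1.97 and MCM6 by 1.95, whereas MCM2, at -0.03, and MCM4, at 0.40, did not pass. CDT1, a helicase loader, was higher by 1.70 (SE 0.236, limma adjusted p = 0.00059). The lower gene was MYBL2, named after its values were seen, at -0.34 (SE 0.103, limma adjusted p = 0.0295). In the PKC412 samples the counts were 16 higher and 2 lower of 24 other axis genes, and 16 higher and 1 lower of 18 E2F targets, beside 37.0% and 21.6% of all genes. The shares of cells in each phase of the cycle were not measured, and bulk levels cannot tell more cells in S phase from more transcript per cell.

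**Figure D3:**
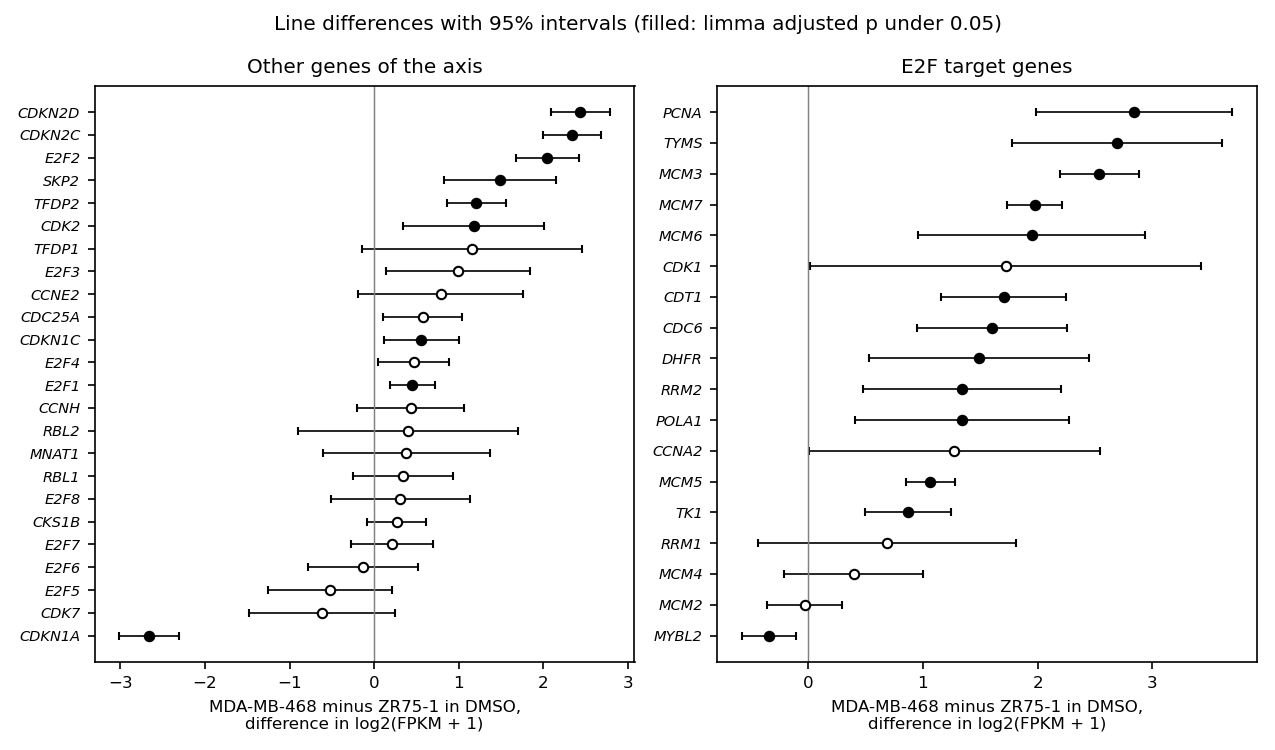
Difference in log2(FPKM + 1), MDA-MB-468 minus ZR75-1 in DMSO (horizontal axis), for the 24 other genes of the axis and the 18 E2F target genes, ordered by size, with 95% intervals. Filled points have a limma adjusted p under 0.05; most filled points lie right of 0, with CDKN1A at -2.66 and MYBL2 at -0.34 to the left.

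Promoter sequence was read for the same lists, to show which genes carry the letters of an E2F site near their start. The words searched, on both strands, were TTTCCCGC, TTTCGCGC, TTTGCCGC and TTTGGCGC, in RefSeq windows on GRCh38.p14 of 300 bases that end just after the annotated start. The reverse complement of a word can overlap another word in the same stretch. A word was found for 3.99% of the 27305 genes with a window, for 10 of 15 E2F target genes with a window (66.7%) and for 6 of 19 other axis genes (31.6%). None of the 8 axis members with a window held a word, and CCND1 and CCND2 had no entry. That says only that these letters were not in those windows. A stretch with a word is printed for E2F1, E2F2, CDT1, MCM3, MCM6 and PCNA, from 5′ to 3′ on the gene's strand, with the word in capitals. The other genes counted as holding a word are not printed.

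E2F1, chr20:33686400-33686429, minus strand: gtggctctttcGCGGCAAAaaggatttggc
E2F2, chr1:23531257-23531286, minus strand: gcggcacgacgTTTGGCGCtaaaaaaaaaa
CDT1, chr16:88803743-88803772, plus strand: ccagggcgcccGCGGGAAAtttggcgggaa
MCM3, chr6:52284898-52284927, minus strand: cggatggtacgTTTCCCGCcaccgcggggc
MCM6, chr2:135876577-135876606, minus strand: agggctttgcaTTTGGCGCGAAAtcccttt
PCNA, chr20:5126663-5126692, minus strand: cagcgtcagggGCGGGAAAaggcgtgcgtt

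In MCM6 a pair of words overlap on opposite strands. A match describes the letters and is not evidence that a factor binds there.

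PKC412 changed none of the 9 tested axis members by the test in either line. In MDA-MB-468, where 0.691% of all genes were called higher and 0.566% lower, 0 of 9 members were called by limma. There 2 members, CCND1 and CDKN2B, had an unadjusted p under 0.05, as did 2635 of the 16071 genes tested. In ZR75-1, where 0.747% were called higher and 0.199% lower, 0 of 9 were called. There 1 member, CCND1, had an unadjusted p under 0.05, as did 1794 of the 16071 genes. For the difference of the effects between the lines, where 0.0684% were called higher in MDA-MB-468 and 0.199% lower, 0 of 9 were called. There 1 member, CDKN2B, had an unadjusted p under 0.05, as did 1133 of the 16071 genes. An exact permutation test of a single gene, with only 2 and 3 samples to exchange, could not give a p under 0.1.

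CCND1 had the lower values with PKC412 in both lines. It read 19.7, 15.6 and 17.6 FPKM with PKC412 in MDA-MB-468 against 30.4 and 28.1 FPKM with DMSO, and 104, 83.9 and 137 FPKM in ZR75-1 against 175 and 160 FPKM. No PKC412 sample reached a DMSO sample in either line. The ratio of means was 0.602 in MDA-MB-468, with a log2 difference of -0.71 (SE 0.195, 95% interval -1.15 to -0.26, limma adjusted p = 0.166). It was 0.646 in ZR75-1, with a log2 difference of -0.65 (SE 0.195, 95% interval -1.10 to -0.20, limma adjusted p = 0.267). The effects differed between the lines by -0.05 (95% interval -0.69 to 0.58, limma adjusted p = 0.974). With FPKM adjusted for GC content and length, CCND1 passed in both lines, at -1.04 in MDA-MB-468 (adjusted p = 0.0193) and -0.95 in ZR75-1 (adjusted p = 0.0312). The adjusted levels were 38.1 and 29.9 FPKM with DMSO and 16.01, 16.3 and 15.5 FPKM with PKC412 in MDA-MB-468, and 237 and 151 against 99.3, 94.7 and 99.2 FPKM in ZR75-1. Over the 21 alternatives the adjusted p ranged from 0.0193 to 0.818 in MDA-MB-468 and from 0.0312 to 0.9996 in ZR75-1, and only the GC adjustment passed. The share of CCND1 among the D-type cyclins was 23.1%, 17.7% and 20.5% with PKC412 in MDA-MB-468, below both DMSO samples, and 75.3%, 71.1% and 81.0% in ZR75-1, also below both.

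CCND3 was at 65.4, 72.5 and 68.0 FPKM with PKC412 in MDA-MB-468 and at 34.1, 34.1 and 32.2 FPKM in ZR75-1, below the DMSO samples in both lines. The log2 differences were small, -0.16 (95% interval -0.37 to 0.05, limma adjusted p = 0.359) and -0.18 (95% interval -0.39 to 0.03, limma adjusted p = 0.521). CDK4 read 61.8, 60.1 and 65.6 FPKM with PKC412 in MDA-MB-468 and 135, 158 and 118 FPKM in ZR75-1, overlapping the DMSO samples. Its log2 differences of -0.04 and -0.02 had 95% intervals of -0.39 to 0.32 and -0.38 to 0.33. CDKN2A read 87.9, 100.3 and 101 FPKM and 4.65, 3.69 and 3.62 FPKM, with a difference of -0.15 in each line that became 0.20 in MDA-MB-468 with the GC adjustment (adjusted p = 0.547). CCNE1 read 18.7, 17.2 and 18.6 FPKM in MDA-MB-468 and 10.3, 9.70 and 12.0 FPKM in ZR75-1, with differences of 0.13 (limma adjusted p = 0.525) and -0.12 (limma adjusted p = 0.775).

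CDKN1B, CDKN2B, CDK6 and RB1, the genes of lower GC content, had higher values with PKC412 in MDA-MB-468. CDKN2B read 5.14, 2.93 and 4.34 FPKM against 1.30 and 2.24 FPKM with DMSO, a log2 difference of 0.89 (SE 0.251, 95% interval 0.31 to 1.47, limma adjusted p = 0.176) that became 0.51 with the GC adjustment (adjusted p = 0.0775). In ZR75-1 it read 0.313, 0.157 and 0.553 FPKM against 0.155 and 0.547 FPKM, a difference of -0.01 (95% interval -0.58 to 0.57), and the effects differed by 0.89 (SE 0.354, limma adjusted p = 0.649). CDKN1B read 6.22, 3.14 and 4.70 FPKM with PKC412 in MDA-MB-468, a difference of 1.04 (SE 0.488, limma adjusted p = 0.315). In ZR75-1 it read 9.42, 7.15 and 15.8 FPKM, a difference of 0.87 (SE 0.488, limma adjusted p = 0.555). CDK6 read 1.34, 0.874 and 0.984 FPKM in MDA-MB-468, a difference of 0.23 (limma adjusted p = 0.338) that became -0.10 with the GC adjustment. RB1 differed by 0.08 in MDA-MB-468 (limma adjusted p = 0.955) and by 0.74 in ZR75-1 (SE 0.446, limma adjusted p = 0.589).

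Counted without a test, 5 of 9 members lay wholly higher with PKC412 in MDA-MB-468 (RB1, CDK6, CCNE1, CDKN1B and CDKN2B), where 39.6% of all genes did, and 3 of 9 wholly lower (CCND1, CCND3 and CDKN2A), where 16.3% did. In ZR75-1, 0 of 9 lay wholly higher, beside 14.8% of all genes, and 2 of 9 wholly lower (CCND1 and CCND3), beside 6.98%. These counts depended on the GC adjustment. With it, RB1 and CCNE1 overlapped in MDA-MB-468, CDK6 and CDK4 lay wholly lower with PKC412, and CDKN2A lay wholly higher, at 99.001 to 109.8 FPKM against 86.2 and 98.9 FPKM. CDKN1B and CDKN2B stayed wholly higher there, and CCND1 and CCND3 wholly lower in both lines. In ZR75-1 CDKN1B then lay wholly higher and CCNE1 wholly lower. By the 3-fold ratio of means used in the study, 0 of 9 members passed in MDA-MB-468, where 7.21% of genes did. In ZR75-1 RB1 alone passed, at 4.25-fold, where 4.09% of genes did. That ratio was decided by single samples, as it ran from 1.71 to 14.7 when each sample of the line was left out in turn, and 0 members passed without ZR75-1 DMSO replicate 1 or ZR75-1 PKC412 replicate 3.

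**Figure D4:**
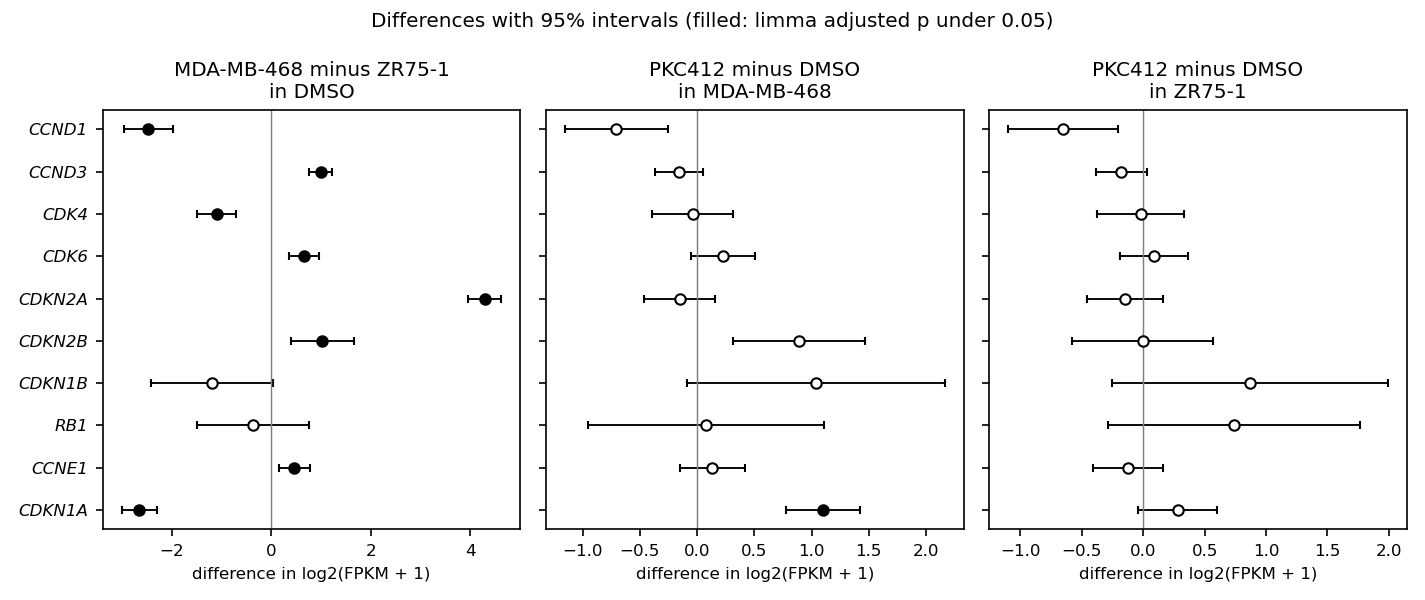
Differences in log2(FPKM + 1) (horizontal axes) with 95% intervals for the 9 tested members and CDKN1A, between the lines in DMSO and between PKC412 and DMSO in each line. Filled points have a limma adjusted p under 0.05: 7 members and CDKN1A in the line panel, and only CDKN1A, at 1.10 in MDA-MB-468, in the PKC412 panels.

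Of the 24 other genes of the axis, CDKN1A was the only call with PKC412 in MDA-MB-468, and none was called in ZR75-1. CDKN1A read 60.4, 59.4 and 61.7 FPKM with PKC412 in MDA-MB-468 against 27.2 and 28.2 FPKM with DMSO, with no overlap. It rose 2.18-fold by group means, with a log2 difference of 1.10 (SE 0.14, limma adjusted p = 0.0104). In ZR75-1 it read 204, 249 and 209 FPKM against 157 and 208 FPKM, a difference of 0.28 (SE 0.14, limma adjusted p = 0.501). The effects differed by 0.82 (SE 0.197, limma adjusted p = 0.246), which passed with the GC adjustment (0.97, adjusted p = 0.0319), within a range of 0.0319 to 0.894 over 20 alternatives. The MDA-MB-468 call was kept in 16 of 21 alternatives. It was lost without its DMSO replicate 1, its DMSO replicate 2 or its PKC412 replicate 3. A block for replicate number also lost it (limma adjusted p = 0.683), as did that block with the GC adjustment (limma adjusted p = 0.241). The log2 difference stayed between 1.07 and 1.13 in all 10 fits that left out a sample.

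RBL1, RBL2, CDK2, CCNE2 and E2F1 are given here whatever their result. They had these differences with PKC412 in MDA-MB-468, none of which passed. RBL2 differed by 1.33 (SE 0.516, limma adjusted p = 0.28), with 10.3, 4.30 and 5.86 FPKM against 1.33 and 2.75 FPKM. CCNE2 differed by 1.10 (SE 0.386, limma adjusted p = 0.253), with 6.27, 2.45 and 3.48 FPKM against 0.718 and 1.95 FPKM. CDK2 differed by 0.55, RBL1 by 0.42 and E2F1 by -0.18. In ZR75-1 the same genes differed by 0.62 for RBL2, 0.16 for CCNE2, 0.29 for CDK2, 0.11 for RBL1 and -0.08 for E2F1. Of the 18 E2F target genes, 0 were called by limma in either line and 0 had an unadjusted p under 0.05. Their median log2 difference came to 0.41 for MDA-MB-468 and 0.05 for ZR75-1, beside 0.11 and 0.07 over all genes tested. With the GC adjustment these genes went both ways in MDA-MB-468. CDC6, wholly higher with PKC412 as deposited, was then wholly lower, at 31.1, 34.3 and 32.5 FPKM against 36.7 and 34.7 FPKM. RRM1 and MCM4 then overlapped. TYMS stayed wholly higher, at 207, 181 and 188 FPKM against 124 and 169 FPKM. An adjusted median is not given.

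The levels of the members followed the GC slope of their samples to different degrees. Within MDA-MB-468, CDKN2B and CDKN1B were lowest in the DMSO sample with the slope of 0.373 and highest in the PKC412 sample with the slope of -0.287. Within ZR75-1 the lowest CDKN1B value, 2.73 FPKM, stood in a DMSO sample with a slope of 0.314 and the highest, 15.8 FPKM, in a PKC412 sample with a slope of -0.356. The span of CDK6 over the 5 ZR75-1 samples was 4.33-fold as deposited and 1.56-fold after the adjustment, and that of CDKN1B was 5.78-fold and 3.28-fold. For CDK4, at 53.6% GC, the ZR75-1 span was 1.34-fold as deposited and 1.40-fold adjusted, and for CDKN2A, at 61.4% GC, 1.38-fold and 1.66-fold. In MDA-MB-468 the slopes divide by treatment, so the adjustment there can also take out an effect of PKC412 that runs along GC content, and these cannot be told apart.

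**Figure D5:**
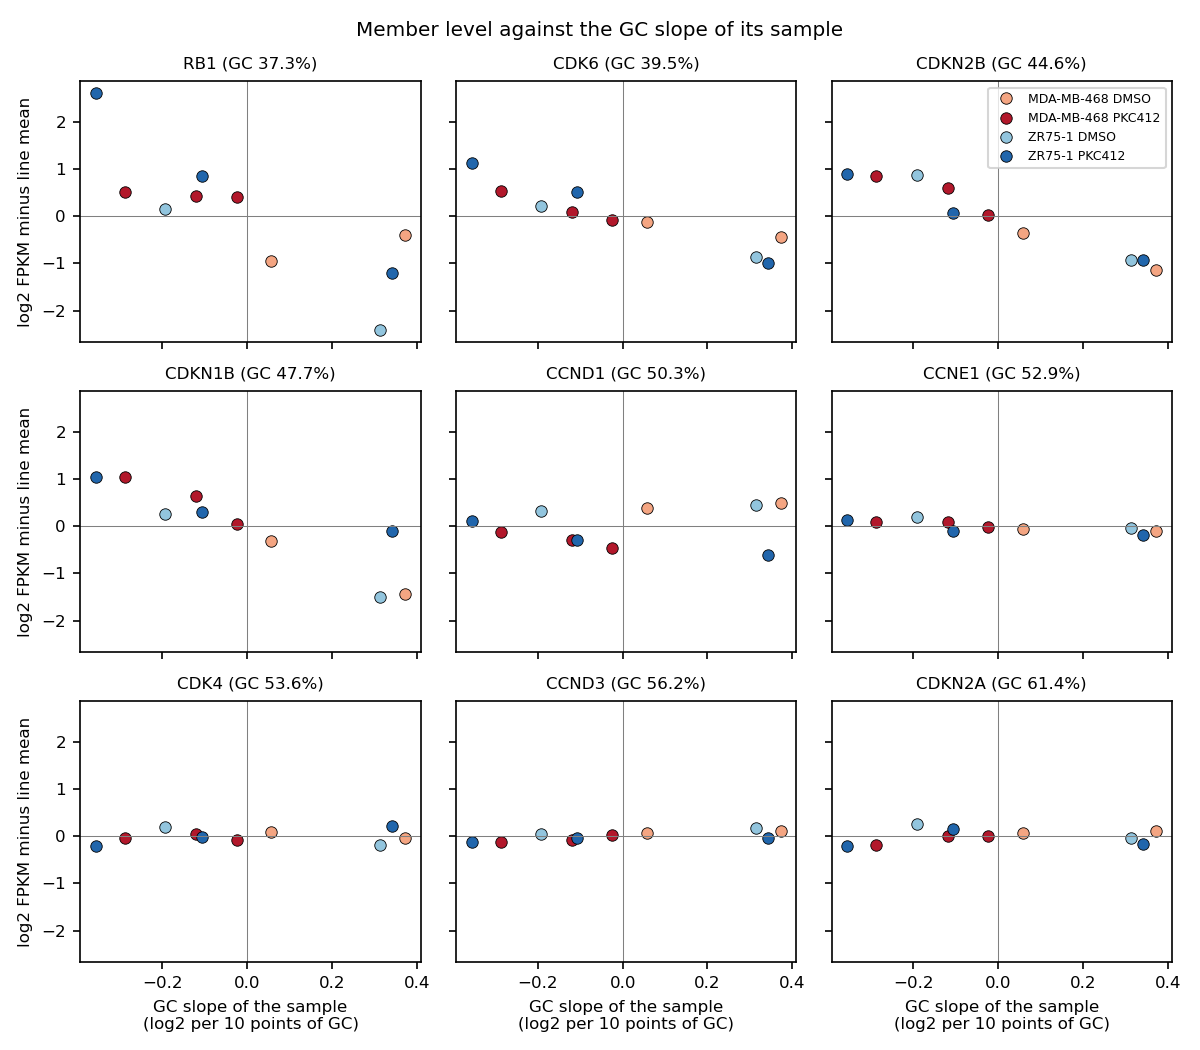
Level of 9 members, as log2 FPKM minus the mean of the line (vertical axis), against the GC slope of the sample in log2 units per 10 percentage points of GC (horizontal axis), with panels ordered by transcript GC content. Each point is a sample; RB1, CDK6, CDKN2B and CDKN1B run downward from left to right, whereas CCNE1, CDK4, CCND3 and CDKN2A stay close to 0.

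By level, the order of the members differed between the lines. In the DMSO samples of MDA-MB-468 the order of the means was CDKN2A at 107, CCND3 at 76.6, CDK4 at 64.2, CCND1 at 29.3, CCNE1 at 16.5, CDKN1B at 1.78, CDKN2B at 1.77, CDK6 at 0.762 and RB1 at 0.0511 FPKM, and of these neighbours only CDKN1B and CDKN2B overlapped. In those of ZR75-1 the order was CCND1 at 168, CDK4 at 139, CCND3 at 38.0, CCNE1 at 11.7, CDKN1B at 5.96, CDKN2A at 4.52, RB1 at 0.375, CDKN2B at 0.351 and CDK6 at 0.116 FPKM. There CDKN1B overlapped CDKN2A, RB1 overlapped CDKN2B and CDKN2B overlapped CDK6.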

How the data were processed

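The authors deposited, for each of the 10 samples, a table of FPKM per gene symbol. Per the submitters' processing notes, CASAVA 1.82 and TopHat2 were used with the hg19 build, and the read counter, annotation and strand setting are not given in the sources used here. FPKM sums per sample ran from 599228 to 835069, and 3193 of 23426 genes were at 0 throughout. The read depth is unknown, so that no counting interval or floor was computed. The files give no whole-read step that would allow counts to be recovered.

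The members, gene lists and tests were chosen with earlier results of these data known. Values were analysed as log2(FPKM + 1) with limma 3.58.1 in R 4.3.3, with 1 mean per group in a fit over all 4 groups (6 residual degrees of freedom), empirical Bayes with a trend, and Benjamini-Hochberg adjustment, at a threshold of 0.05, over the 16071 genes whose mean in some group exceeded 0.1 FPKM. The agents were compared within each line (PKC412 minus DMSO), the lines were compared in DMSO (MDA-MB-468 minus ZR75-1), and the PKC412 effects were compared between lines. The 3-fold ratio of means of the study has no test. The fit was tested on simulated data.

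Lengths, positions and GC content were taken from GENCODE release 29 (GRCh38), matched by symbol for 20638 genes (88.1%), and not from the hg19 build of the files. For the GC slope of a sample, log2 FPKM was centred per gene within the line and regressed on GC content, using the 8761 (MDA-MB-468) or 7719 (ZR75-1) genes that exceeded 1 FPKM throughout the line. The adjustment removed a cubic trend in GC content and another in log2 length. Text names all members, up to 6 called genes per list and contrast by size, RBL1, RBL2, CDK2, CCNE2, CDKN1A and E2F1 always, genes within 500 kb of RB1, CDKN2A and CDKN2B, CCND1 and CCNE1, and the 3 genes most correlated with a member. A few of these genes are not reported here. Alternatives were other pseudocounts, filters, scalings, sample sets and variance priors, a replicate block, the GC and length adjustment, and leaving out each sample. The GC adjustment with the block was added after the data had been seen.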

Additional observations from a re-analysis of the deposited data

How the results depend on the processing

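Of 147 values of the 7 members called between the lines under 21 alternatives each, 139 kept their call and 8 lost it, all 8 of CCNE1 and CDKN2B, and no direction turned. CCNE1 was also lost with upper-quartile scaling (adjusted p = 0.0596) and with the 2 groups compared alone (adjusted p = 0.0886), and 5 to 7 members were called when each sample was left out. Leaving out a DMSO sample left its group with 1, which the pooled fit assumes to vary like the other groups. Counts with PKC412 depended on the settings. In MDA-MB-468, 202 genes were called, against 116 with a pseudocount of 0.1, 81 with only the groups compared, 579 with the GC adjustment, and 65 to 324 when each sample was left out (65 and 68 without DMSO replicates 1 and 2; 91, 324 and 86 without PKC412 replicates 1, 2 and 3; 98 without ZR75-1 PKC412 replicate 1). In ZR75-1, 152 were called, against 12 with only the groups compared, 452 with the GC adjustment, and 59 to 183 when each sample was left out (59, 59, 75, 84 and 59 without each MDA-MB-468 sample in turn, 60 without ZR75-1 DMSO replicate 1 and 72 without ZR75-1 PKC412 replicate 1). The split there was 120 higher and 32 lower, against 279 and 173 with the GC adjustment. For the difference of effects, 43 were called, against 27 with a pseudocount of 0.1, 68 without a filter, 68 without the trend, 210 with the GC adjustment and 16 to 64 when each sample was left out (21 and 16 without MDA-MB-468 PKC412 replicates 1 and 3). With the GC adjustment 1 member, CCND1, was called in each line.

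The labels number the replicates and do not say whether equal numbers mean paired cultures. The deviations of same-numbered samples correlated at -0.692 and -0.614 in MDA-MB-468 and 0.0904 and -0.613 in ZR75-1. With 2 DMSO samples per line, their deviations mirror each other, so these values cannot decide whether the samples were paired. With the replicate block, 0 genes were called in each PKC412 contrast and in their difference, with 2 residual degrees of freedom, and with the block and the GC adjustment 3, 3 and 0.

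By the 3-fold ratio, 1078 genes passed in MDA-MB-468, against 237 with a pseudocount of 1, 613 with a mean above 1 FPKM and 646 to 2136 when each sample was left out (2136 without DMSO replicate 2, 646 without PKC412 replicate 1), with 0 to 2 members (2 without DMSO replicate 2, 1 without PKC412 replicate 2). In ZR75-1, 596 passed, against 186, 295 and 490 to 2197 (2197 without DMSO replicate 2), with 0 members at a pseudocount of 1 and 0 to 2 when each sample was left out (2 without DMSO replicate 2).

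Directions that turned belonged to differences that did not pass. With PKC412 in MDA-MB-468 they were CDK6 (-0.10 with the GC adjustment, -0.079 with the block too), CDKN2A (0.20 and 0.17) and CDK4 (-0.096 to 0.022 when each sample was left out). In ZR75-1 they were CDK4 (0.078 with the block, -0.21 to 0.17 when each sample was left out) and CDKN2B (0.015 with a pseudocount of 0.1, -0.22 to 0.20 when each sample was left out). The CCND1 difference of effects was 0.13 with the block and -0.22 to 0.13 when each sample was left out, and the line difference of RBL2 was -0.071 to 0.87. The cause was not tested. Depth, which limits the low values of RB1, CCND2 and CDK6, is unknown.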

Other observations

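Around CCND1 on chromosome 11 the neighbouring genes differed between the lines in both directions. MYEOV, which lies before CCND1, read 18.9 to 31.7 FPKM in MDA-MB-468 and 1.35 to 3.93 FPKM in ZR75-1, a log2 difference of 2.68 in DMSO (SE 0.146, limma adjusted p = 3.6e-06) in the direction opposite to that of CCND1. TPCN2, an ion channel gene of the lysosome, was lower in MDA-MB-468 by the test, at 2.24 to 2.74 FPKM against 7.77 to 9.51 FPKM (difference -1.39, SE 0.158, limma adjusted p = 0.0002). ANO1, a chloride channel gene, was higher in MDA-MB-468 by 1.32 (SE 0.392, limma adjusted p = 0.0267). FGF19, FGF4 and FGF3, which lie closest after CCND1, stayed at or under 0.0813 FPKM in every sample. MYEOV was also among the 32 genes called lower with PKC412 in ZR75-1, where it read 1.70, 2.00 and 1.35 FPKM against 3.81 and 3.93 FPKM. Around CCNE1 on chromosome 19 none of the 4 tested neighbours (POP4, PLEKHF1, C19orf12 and URI1) passed between the lines, with log2 differences of 0.25, 0.64, 0.06 and 1.19.

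Over the 10 samples, the genes whose log2(FPKM + 1) was most like that of a member are given as descriptions, since the samples share 2 lines and their GC slopes and so do not form independent points. CCND1 was followed most closely by FXC1 (Pearson r = 0.989), CISH (r = 0.988), a feedback inhibitor of cytokine signalling, and LOC100507246 (r = 0.987). For CDKN2A they were BFSP1, COTL1 and AKR1B1 (r = 0.9996, 0.9995 and 0.9992), for CCND3 they included ANXA2 and LSM2 (r = 0.998 each), and for CDK4 THAP11, C15orf37 and HLA-DRB5 (r = 0.994, 0.991 and 0.990). For CDK6 they were HCG11, LOC401321 and ZNF529 (r = 0.998, 0.997 and 0.997), for CCNE1 they included SSBP3 and TBC1D20 (r = 0.993 and 0.991), and for CDKN1B PIGG, MOAP1 and KLHL12 (r = 0.996, 0.995 and 0.994). For CDKN2B they were GOPC, NREP and PALLD (r = 0.996 each), and for RB1 CRISPLD1, AVIL and IPW (r = 0.992, 0.991 and 0.987), all 3 under 1 FPKM in every sample.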
